A study of Arabidopsis thaliana with 41 samples.

Results

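Alternative oxidases and the genes that plants switch on when mitochondria are disturbed were followed across 4 *Arabidopsis thaliana* genotypes. The set was listed by gene identity, with earlier results of these data known. It holds the 4 *AOX1* genes (*AOX1A*, AT3G22370; *AOX1B*, AT3G22360; *AOX1C*, AT3G27620; *AOX1D*, AT1G32350) and the type II NAD(P)H dehydrogenase genes *NDB2* (AT4G05020) and *NDA1* (AT1G07180). The mitochondrial stress markers *UPOX* (AT2G21640) and *OM66* (AT3G50930) and the membrane-bound transcription factor genes *NAC013* (AT1G32870) and *NAC017* (AT1G34190) bring it to 10 of the 32865 genes in the expression tables. Alternative oxidase sits in the inner mitochondrial membrane and passes electrons from ubiquinol to oxygen without pumping protons. Type II NAD(P)H dehydrogenases feed electrons into the same ubiquinone pool, also without pumping protons, so together they form a respiratory bypass of the cytochrome pathway. When mitochondrial electron transport is inhibited, NAC013 and NAC017 are released from membranes, move to the nucleus and bind the mitochondrial dysfunction motif of stress genes, among which *AOX1A* is the classical reporter.

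The libraries are total RNA sequenced after removal of ribosomal RNA, from rosette leaves numbered 5 to 6. Plants were grown in 16 h light and 8 h darkness and collected 5 h after light onset, and each library pooled at least 6 plants. The tested genotypes were *glk*, *Atepl1-2* and *Ateaf1-1*, set against wild-type plants (WT). The *glk* line is the *glk1-1 glk2-1* double mutant, with a transposon inserted in each of *GLK1* and *GLK2*, which encode GOLDEN2-LIKE transcription factors of chloroplast development. *Atepl1-2* carries Cas9-made frameshift deletions in both *AtEPL1A* and *AtEPL1B*, and *Ateaf1-1* carries a Cas9-made deletion that joins the tandem genes *AtEAF1A* and *AtEAF1B* with a frameshift. AtEPL1 and AtEAF1 are scaffold subunits of NuA4, the complex that acetylates histones H4 and H2A.Z. Each mutant genotype is represented by a single line.

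The 16 libraries carry 2 styles of sample label, here called the first and the second set; the labels do not say what separates them. The first set holds 3 *Atepl1-2* libraries (replicates 1, 3 and 4) and 3 WT libraries (replicates 5, 7 and 8). The second set holds 3 *glk*, 3 *Atepl1-2* and 3 *Ateaf1-1* libraries and 1 WT library (replicate 4). Comparisons of the second set therefore used all 4 WT libraries, and WT replicate 4 is the only WT library labelled like the mutants. A p-value sets a difference against the spread between these leaf pools. In the pooled WT that spread also holds any difference between the 2 sets.

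Total counts ran from 22330141 to 39666320 per library. Chloroplast-encoded genes took 61.4% to 64.5% of counts in *glk*, 53.6% to 55.9% in *Atepl1-2* of the first set, 44.9% to 54.9% in *Atepl1-2* of the second set and 40.2% to 50.2% in *Ateaf1-1*, against 60% to 65.6% in WT. *GLK1* lay at 1.66 to 1.98 TPM (transcripts-per-million, a length-corrected level) in *glk* and at 6.07 to 11.4 TPM in WT, whereas *GLK2* was not lower, at 7.79 to 8.54 TPM in *glk* and 5.13 to 8.82 TPM in WT. *AtEPL1A*, *AtEPL1B*, *AtEAF1A* and *AtEAF1B* were not lower in their mutants than in WT, and gene totals do not show whether an insertion, a small deletion or a fusion is present. The 3 mesophyll markers summed to 1130 to 3480 TPM in every library. In the edgeR test used for all comparisons with WT, *RBCS1A* (log2 -1.26) and *CA1* (-0.86) of these fell in *Atepl1-2* of the first set and *RCA* (-1.95) in *Atepl1-2* of the second set, and none of the 3 passed in *glk* or *Ateaf1-1*. *RCA* stood at 124 TPM in WT replicate 4 and at 510 to 615 TPM in WT of the first set. Without WT replicate 4, 3 markers fell in *glk*, 3 in *Atepl1-2* and 2 in *Ateaf1-1*, where 20.2%, 36.6% and 33.1% of all genes passed. Against WT replicate 4 alone their median log2 difference was 0.11 in *glk*, 0.32 in *Atepl1-2* and 1.05 in *Ateaf1-1*. The phloem marker *SUC2* fell in all 4 comparisons (log2 -0.96 in *glk*, -1.30 and -1.67 in *Atepl1-2* of the first and the second set, -1.37 in *Ateaf1-1*), and the other phloem marker *APL* passed in 0 of them. With a term for the label set, 0 phloem markers fell in *glk*, 1 in *Atepl1-2* and 1 in *Ateaf1-1*. Of all genes 6.75%, 35.6% and 24.7% then passed. Against WT replicate 4 alone the phloem medians were -0.02, -0.22 and -0.27 in the same order. The 3 root markers summed to 4.77 to 9.76 TPM in *glk*, 1.26 to 5 TPM in *Atepl1-2* of the first set, 15.6 to 30 TPM in *Atepl1-2* of the second set and 14.2 to 31.4 TPM in *Ateaf1-1*, against 0.0258 to 1.05 TPM in WT, where 2 of the 3 were at 0 in every library. Nearly all of each sum was *PYK10*, at 4.76 to 9.76, 1.26 to 5.00, 15.5 to 28.7 and 14.2 to 31.3 TPM in these mutant groups. *BGLU21* reached at most 0.0659 TPM and *BGLU22* at most 1.265 TPM in any library. Flower markers summed to at most 4.48 TPM in mutants and 0.404 TPM in WT. *PI* rose in all 4 comparisons (log2 5.63 in *glk*, 3.57 and 4.92 in *Atepl1-2* of the first and the second set, 3.28 in *Ateaf1-1*). *AP3* rose in *glk*, where it averaged 1.06 TPM against 0 TPM in WT, and *AG* passed in 0 comparisons. With the term for the label set, 3 flower markers rose in *glk*, 1 in *Atepl1-2* and 0 in *Ateaf1-1*. The part of chloroplast RNA share and of these markers in the results below was not tested, and in bulk leaf RNA fewer cells of a type and less RNA per cell cannot be told apart.

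The letters of the mitochondrial dysfunction motif were found near the start of 6 of the 10 genes. Its spaced forms, CTTG and CAAG or CTTG and CACG with any 5 bases between them, were searched on both strands from 250 bases before to 50 bases after the annotated start of each gene (RefSeq annotation, TAIR10.1; the labels name TAIR10). The form with CAAG was present in 0.904% of 27444 protein-coding genes, the form with CACG in 0.536%, and either form in 1.42%. The sites are shown because they are the letters that NAC013 and NAC017 are known to bind, and capitals mark the fixed bases of the motif. *AOX1A*, on the plus strand, has one copy of each form, at chr3:7906510-7906538 across the start site (motif positions -3 to 10) and at chr3:7906537-7906565 (positions 25 to 37). The others lie upstream, in *AOX1B* at chr3:7903971-7903999 (positions -118 to -106), in *NDB2* at chr4:2572340-2572368 (-79 to -67), in *NDA1* at chr1:2204026-2204054 (-70 to -58), in *UPOX* at chr2:9254319-9254347 (-51 to -39) and in *NAC017* at chr1:12451287-12451315 (-110 to -98). All are printed along the plus strand, which is the strand of these genes, and in *AOX1B* and *NAC017* the motif reads on the opposite strand.
AOX1A, across the start: atctagctCTTGgcgacCACGcaagtatc
AOX1A, after the start: tcttccatCTTGctctcCAAGaaaaatct
AOX1B: tgtcttttCGTGtgctaCAAGtcttttag
NDB2: cgatctggCTTGgccacCAAGattgtttg
NDA1: tgtcgtttCTTGcgcatCAAGttctgctg
UPOX: tttagtaaCTTGctctcCAAGgagatcta
NAC017: acctctgtCGTGtcagaCAAGaatgttgg

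No match to either form lay in this window of *AOX1C*, *AOX1D*, *OM66* or *NAC013*. *AOX1D* and *OM66* carried the widest differences between genotypes, and the 250 bases before their starts are shown with the W-box core TTGAC (the letters that WRKY factors are known to bind) and its reverse complement GTCAA in capitals. Each stretch holds 2 cores, but the core is common: 50.5% of all promoters and 7 of the 10 hold one in the longer window. The *AOX1D* stretch is the minus strand of chr1:11668691-11668940 and the *OM66* stretch is the plus strand of chr3:18929276-18929525. The G-box CACGTG was found in 1 of the 10 (*UPOX*) and in 7.68% of all promoters. These matches describe sequence alone.
AOX1D: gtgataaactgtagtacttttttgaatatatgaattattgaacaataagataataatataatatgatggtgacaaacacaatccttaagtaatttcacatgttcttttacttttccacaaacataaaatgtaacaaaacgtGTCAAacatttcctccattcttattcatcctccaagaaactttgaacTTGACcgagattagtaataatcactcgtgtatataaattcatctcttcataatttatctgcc
OM66: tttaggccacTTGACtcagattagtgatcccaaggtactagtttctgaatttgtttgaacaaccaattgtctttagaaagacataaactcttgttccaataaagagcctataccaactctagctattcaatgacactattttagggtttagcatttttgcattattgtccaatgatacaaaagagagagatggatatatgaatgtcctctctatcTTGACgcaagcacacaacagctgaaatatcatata

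In WT leaves the set spanned genes that were plainly expressed and genes that were nearly or fully silent. Levels of different genes are compared in TPM, which corrects for transcript length. The median over the 4 WT libraries was highest for *NDA1* (9.02 TPM, range 1.04 to 11.7), followed by *AOX1A* (5.75, 5.36 to 7.24), *OM66* (4.33, 2.22 to 6.73), *NAC017* (3.57, 3.30 to 4.16), *NDB2* (2.14, 0.836 to 2.33), *UPOX* (0.607, 0.335 to 1.69), *NAC013* (0.450, 0.285 to 0.623) and *AOX1C* (0.0470, 0 to 0.137). *AOX1B* and *AOX1D* had a WT median of 0. Neighbours in this order overlapped in range, except that *NAC017* lay above *NDB2* and *NAC013* lay above *AOX1C* in every WT library. In *glk* the order of the leading genes was *NDA1* (median 9.56 TPM), *AOX1A* (6.53) and *NAC017* (4.27), and *OM66* dropped to 0.289 TPM. *OM66* led in *Atepl1-2* of the first set with 57.1 TPM, ahead of *AOX1A* (27.6) and *AOX1D* (12.8). In *Atepl1-2* of the second set *AOX1A* led with 17.7 TPM, ahead of *OM66* (13.2), and *AOX1D* reached 6.11. In *Ateaf1-1* *OM66* (15.5) and *AOX1A* (14.7) were close, and *AOX1D* reached 4.97.

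**Figure D1:**
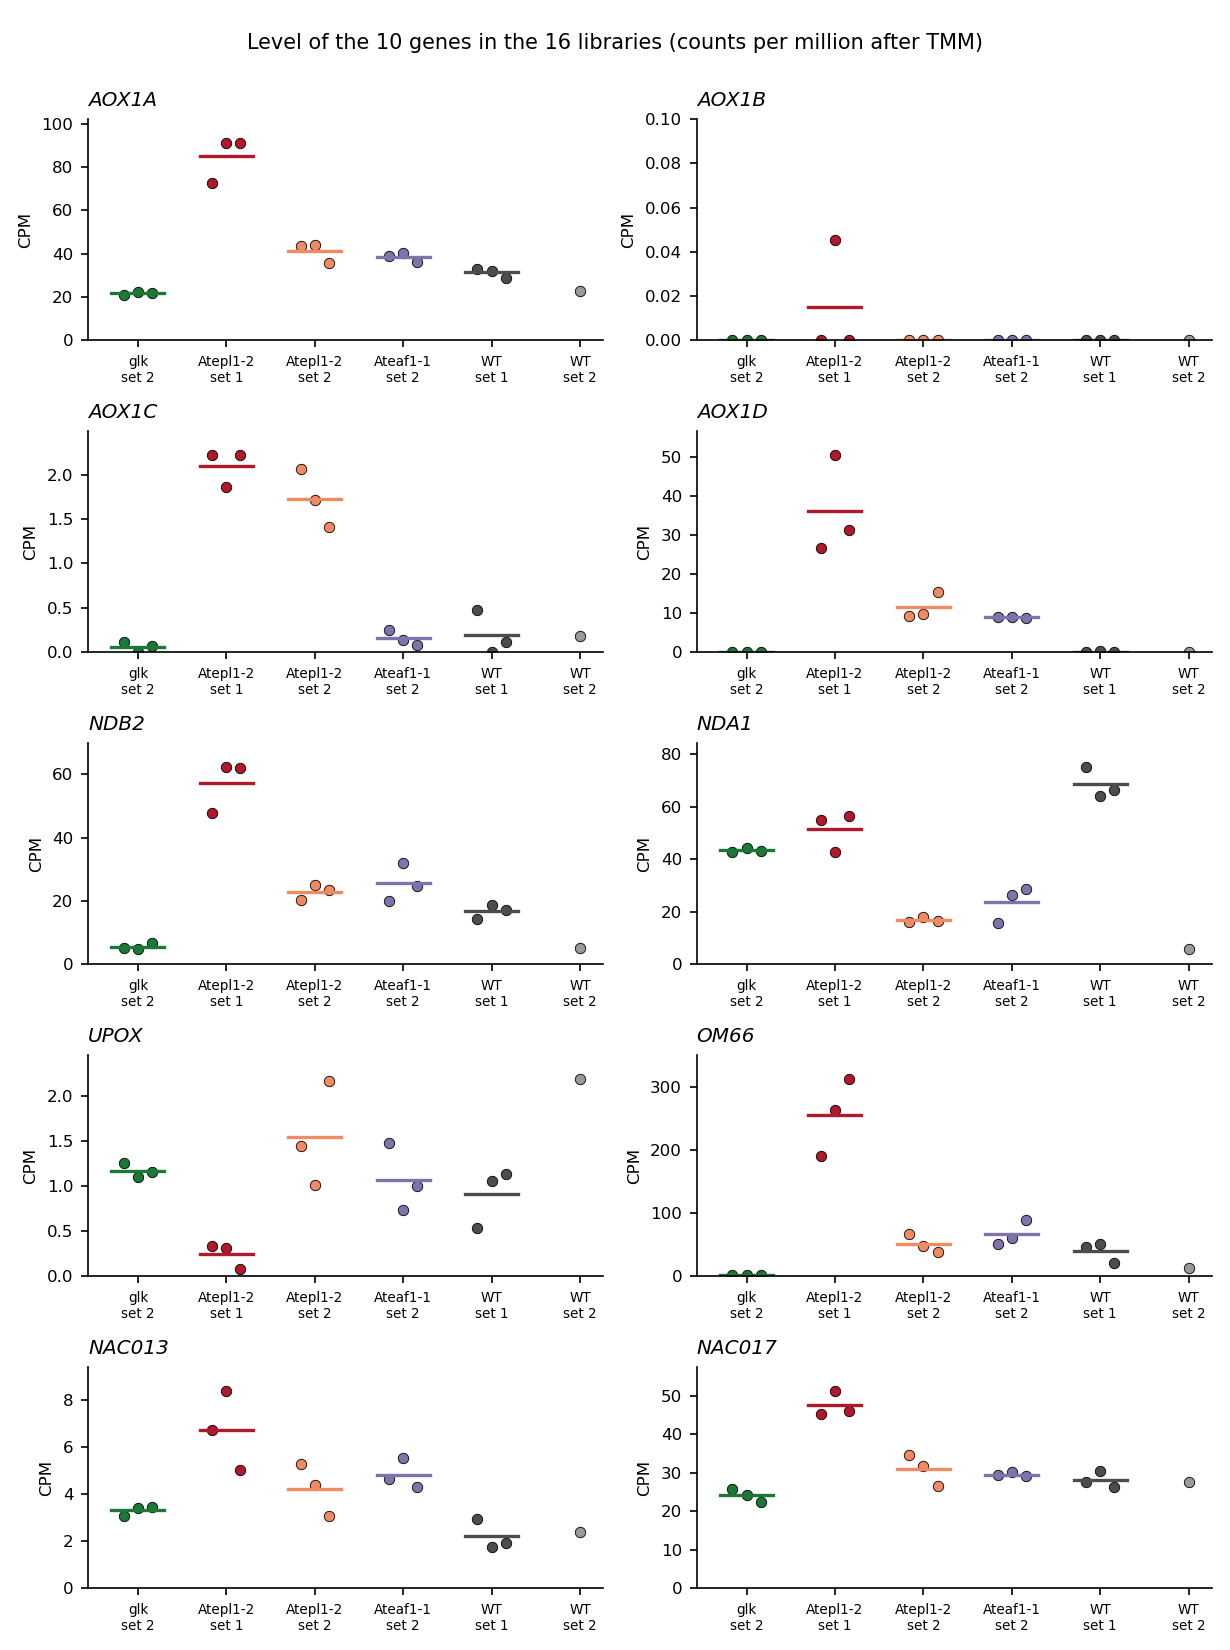
Level of each of the 10 genes in every library, as CPM after TMM scaling (y axis, linear, with its own range for each gene), with 1 point per library and a bar at the mean of each group of 3; set 1 and set 2 are the first and the second set of labels. *AOX1D* is high in every *Atepl1-2* and *Ateaf1-1* library and near 0 in *glk* and WT, *OM66* is lowest in the 3 *glk* libraries, and *NDA1* of WT replicate 4 lies far below the other WT libraries.

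Each mutant was then set against WT gene by gene. Counts-per-million values (CPM) after TMM (trimmed mean) scaling of library sizes, which serve to compare a gene with itself across libraries, are given below, and the test was edgeR's quasi-likelihood F test over all genes, with a gene said to have risen or fallen at a Benjamini-Hochberg false discovery rate (FDR) below 0.01 and a change of at least 1.5-fold. *AOX1B* was too low to be tested in any comparison. In *glk* 1 of 9 tested genes fell (*OM66*) and 0 rose, where 11.6% of 20733 genes passed, 7.45% downward and 4.18% upward. In *Atepl1-2* of the second set 3 of 9 rose (*AOX1C*, *AOX1D*, *NAC013*) and 0 fell, where 30.3% of all genes passed, 16.8% upward and 13.5% downward. In *Ateaf1-1* 2 of 9 rose (*AOX1D*, *NAC013*) and 0 fell, where 26.1% passed, 13.6% upward and 12.5% downward. In *Atepl1-2* of the first set against WT of the first set 7 of 8 rose (*AOX1A*, *AOX1C*, *AOX1D*, *NDB2*, *OM66*, *NAC013*, *NAC017*) and 0 fell, where 45.1% of 18840 genes passed, 23.3% upward and 21.8% downward. The 3 comparisons of the second set share the same WT libraries, and those of *Atepl1-2* share 3 of them.

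Libraries that do not overlap were common throughout the transcriptome. In *glk* 3 tested genes lay below WT in every library and 1 above, where 18.1% and 17.9% of all genes did. Of those tested in *Atepl1-2* of the second set 5 lay above and 0 below (25.4% and 19.5% of all genes), in *Ateaf1-1* 5 above and 0 below (24.6% and 17.9%), and in *Atepl1-2* of the first set 7 above and 1 below (35.6% and 32.9%).

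The median log2 difference over the tested genes was -0.28 in *glk*, 0.62 in *Atepl1-2* of the second set, 0.36 in *Ateaf1-1* and 1.70 in *Atepl1-2* of the first set. Over all genes it was 0.02, 0.05, 0.07 and 0.05 in the same comparisons. Against the pooled WT, the second set thus had few calls beyond the share of the whole transcriptome, and the first set had 7 of 8.

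**Figure D2:**
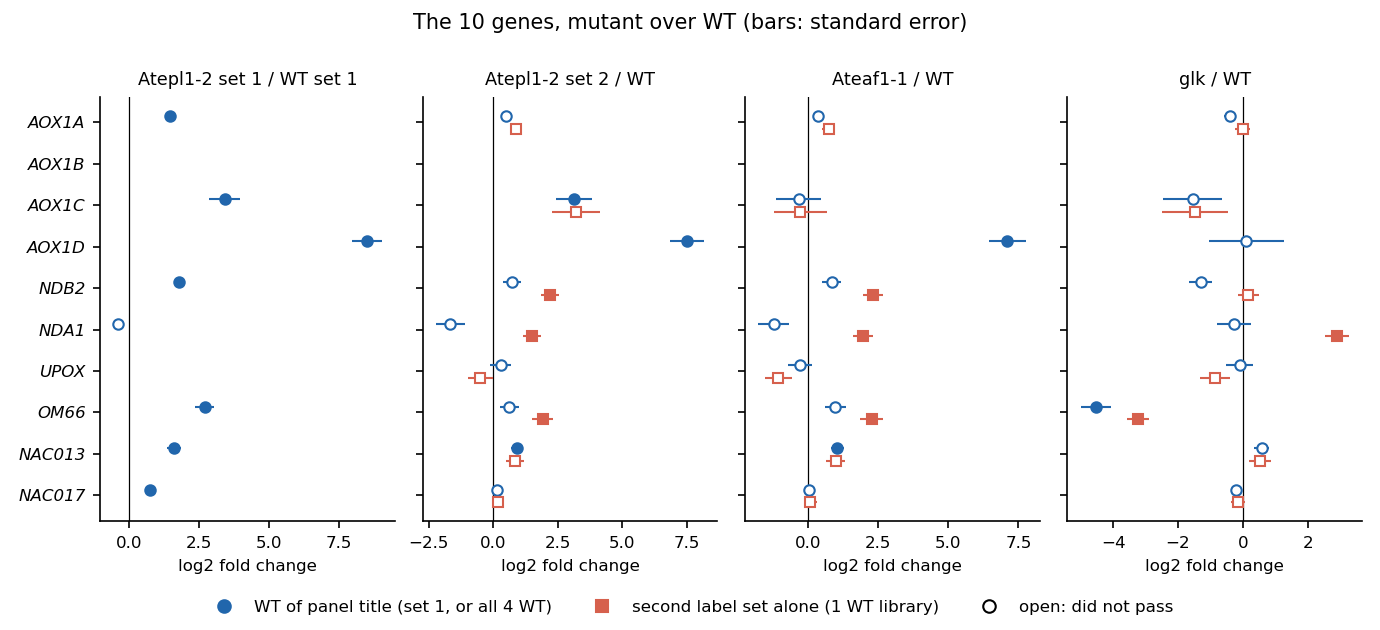
Log2 difference from WT of each gene (x axis, bars show the standard error; filled points passed the test) in 4 comparisons, against WT of the first set or all 4 WT libraries (circles) and within the second set alone (squares). *AOX1D* lies far to the right in *Atepl1-2* and *Ateaf1-1* and has no square because WT replicate 4 has 0 counts, *OM66* lies left of 0 in *glk*, and in the comparisons of the second set the circle and the square of *NDA1* lie on opposite sides of 0.

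*AOX1D*, an alternative oxidase gene of leaves that is barely expressed in unstressed plants, showed the widest rise of the set. It stood at 0.0449, 0.158 and 0 CPM in *glk*. In *Atepl1-2* it stood at 26.7, 50.7 and 31.5 CPM in the first set and at 9.33, 9.95 and 15.5 CPM in the second set. In *Ateaf1-1* it stood at 9.14, 9.01 and 8.90 CPM, against 0, 0.265 and 0 CPM in WT replicates 5, 7 and 8 and 0 CPM in WT replicate 4. All 9 libraries of NuA4 mutants therefore lay above all *glk* and WT libraries, which overlapped each other.

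Every WT count of *AOX1D* came from replicate 7, which had 5. In *Atepl1-2* of the second set 1610 counts were found over 3 libraries, which after scaling for library size was 189 times the WT level (95% counting interval 80.8 to 582), and the fitted log2 difference was 7.50 (SE 0.668, edgeR FDR 1.58e-06). In *Ateaf1-1* there were 1263 counts and the ratio was 152 (64.8 to 468), with a log2 difference of 7.11 (SE 0.671, edgeR FDR 3.23e-06). In *Atepl1-2* of the first set 2593 counts gave a ratio of 371 (159 to 1144) to its own WT. Against WT replicate 4 alone, which had 0 counts, *AOX1D* was at least 123-fold higher in *Atepl1-2* and at least 96-fold higher in *Ateaf1-1* of the second set, with 3 counts taken as the floor in that library. In *glk* 8 counts gave a ratio of 1.08 (0.310 to 4.18). Counting intervals cover counting error only.

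*AOX1A*, the isoform that carries most alternative oxidase in vegetative tissue, moved far less. Its levels were 21.1, 22.4 and 21.99 CPM in *glk*. They were 72.5, 90.9 and 91.2 CPM in *Atepl1-2* of the first set and 43.6, 44.1 and 35.7 CPM in *Atepl1-2* of the second set. *Ateaf1-1* had 39.0, 40.2 and 36.0 CPM, and WT had 33.0, 32.1 and 28.9 CPM in the first set and 22.6 CPM in the second. Every NuA4 mutant library exceeded every WT library and every *glk* library fell below WT, the nearest pair being *glk* at 22.4 CPM and WT replicate 4 at 22.6 CPM.

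In the first set *AOX1A* rose 2.71-fold in *Atepl1-2* (log2 1.44, SE 0.139, edgeR FDR 1.84e-05). The second set gave log2 0.49 for *Atepl1-2* (95% interval 0.14 to 0.84, edgeR FDR 0.0251) and 0.36 for *Ateaf1-1* (0.01 to 0.71, edgeR FDR 0.0953), neither of which passed. When all 16 libraries were fitted with a term for the label set, both passed, at 1.24 in *Atepl1-2* (edgeR FDR 2.14e-06) and 1.04 in *Ateaf1-1* (edgeR FDR 0.000409). That fit joins the *Atepl1-2* libraries of both sets and takes their effect as equal, so its *Atepl1-2* value is not one of the second set. Against WT replicate 4 alone the log2 difference was 0.87 in *Atepl1-2* and 0.75 in *Ateaf1-1*. The *glk* difference was -0.40 (edgeR FDR 0.0974) and turned to 0.22 with the term for the label set and to 0.082 on the log2(TPM + 1) scale.

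*AOX1C*, a further isoform, rose in *Atepl1-2* and did not pass in *Ateaf1-1*. The direct difference between these mutants did not pass either (edgeR FDR 0.0277). *AOX1C* had 0.112, 0 and 0.0706 CPM in *glk*, 2.22, 1.86 and 2.22 CPM in *Atepl1-2* of the first set, 2.06, 1.72 and 1.42 CPM in *Atepl1-2* of the second set, and 0.255, 0.133 and 0.0836 CPM in *Ateaf1-1*, against 0.480, 0, 0.12 and 0.188 CPM in WT replicates 5, 7, 8 and 4. Only *Atepl1-2* libraries exceeded 1 CPM, and *Ateaf1-1*, *glk* and WT overlapped. It rose in *Atepl1-2* of the second set (254 counts against 16 in WT, ratio 9.31, 95% counting interval 5.62 to 16.5, log2 3.14, SE 0.694, edgeR FDR 0.00235) and of the first set (154 counts against 10, ratio 11.02, 5.83 to 23.4, edgeR FDR 0.00052). Without *Atepl1-2* replicate 1 the call of the second set was lost (log2 3.001, edgeR FDR 0.0101), as it was against WT replicate 4 alone (3.19, edgeR FDR 0.0278). *AOX1B*, which lies 945 bases from *AOX1A* in tandem, was silent here, with 1 count in replicate 3 of *Atepl1-2* of the first set and 0 counts in the other 15 libraries, which allows up to 3 counts in each.

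The make-up of the alternative oxidase transcript pool followed from these levels. Summed over the 4 *AOX1* genes, the pool was 6.46 ± 0.414 TPM in *glk* (SD, n = 3), 43.8 ± 9.78 TPM in *Atepl1-2* of the first set (n = 3), 23.4 ± 6.61 TPM in *Atepl1-2* of the second set (n = 3) and 20.1 ± 1.78 TPM in *Ateaf1-1* (n = 3), against 6.10 ± 0.875 TPM in WT (n = 4). TPM of the median gene was also higher in the mutants than in WT, by 0.26 in *glk*, 0.38 and 0.50 in *Atepl1-2* of the first and the second set and 0.56 in *Ateaf1-1* on the log2(TPM + 1) scale, so the shares within a library are the safer reading. *AOX1D* made up 35.1 ± 6.20% and 27.1 ± 8.52% of the pool in *Atepl1-2* of the first and the second set and 24.3 ± 0.972% in *Ateaf1-1*. Its share was 0.421 ± 0.499% in *glk* and 0.266 ± 0.532% in WT, where *AOX1A* alone made up 98.1% to 99.4%. *AOX1C* never exceeded 4.55% of the pool.

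**Figure D3:**
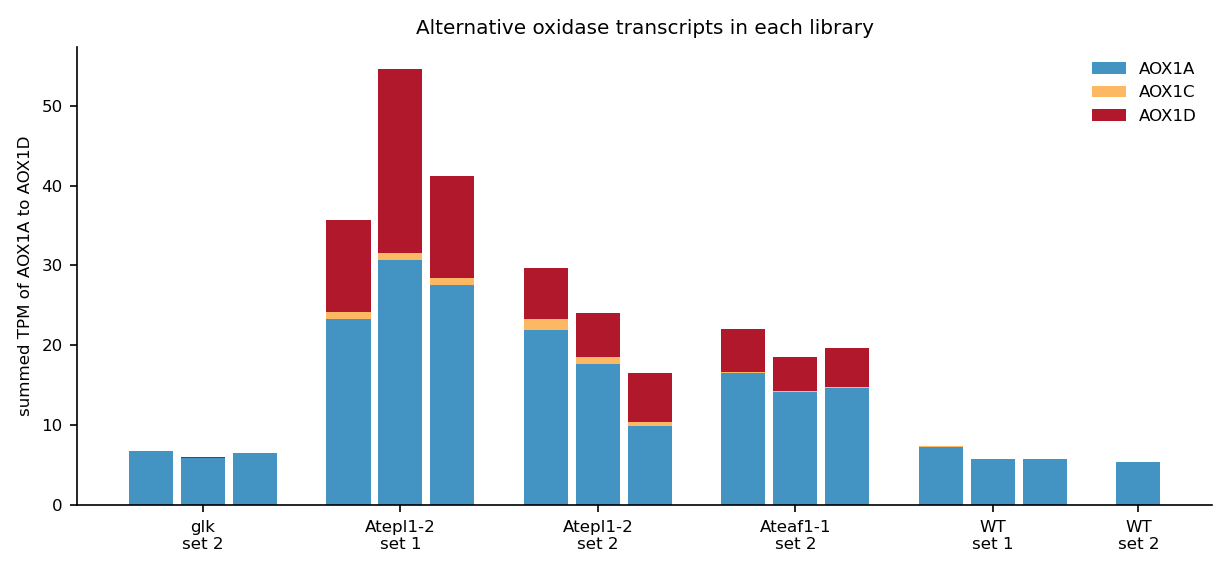
Summed TPM of *AOX1A*, *AOX1B*, *AOX1C* and *AOX1D* in each library (y axis, 1 stacked bar per library, coloured by gene), with set 1 and set 2 for the first and the second set of labels. The *AOX1D* block is visible in all *Atepl1-2* and *Ateaf1-1* bars and in no *glk* or WT bar.

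The 2 type II dehydrogenases behaved unlike each other. *NDB2* encodes an NADH dehydrogenase on the outer face of the inner membrane that is known to be induced together with *AOX1A*. It had 5.05, 4.68 and 6.80 CPM in *glk*, 47.8, 62.3 and 61.9 CPM in *Atepl1-2* of the first set, 20.3, 24.9 and 23.3 CPM in *Atepl1-2* of the second set and 19.9, 32.1 and 24.8 CPM in *Ateaf1-1*, against 14.3, 18.6 and 17.1 CPM in WT replicates 5, 7 and 8 and 5.04 CPM in WT replicate 4. All NuA4 mutant libraries were above all WT libraries, and *glk* matched WT replicate 4 while lying under the other 3.

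*NDB2* rose 3.44-fold in *Atepl1-2* of the first set (log2 1.78, SE 0.157, edgeR FDR 1.03e-05). Against the pooled WT libraries the second set did not pass (*Atepl1-2* log2 0.72, edgeR FDR 0.0943; *Ateaf1-1* log2 0.85, edgeR FDR 0.0552). Against WT replicate 4 alone both passed, at log2 2.18 (edgeR FDR 0.00146) and 2.33 (edgeR FDR 0.00114). In *glk* the difference was -1.30 (edgeR FDR 0.0171), which passed at -1.59 without WT replicate 4 (edgeR FDR 9.42e-05) and was 0.17 against WT replicate 4 alone.

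*NDA1* encodes an NADH dehydrogenase on the matrix face that is known to respond to light. Its levels were 42.7, 44.3 and 43.1 CPM in *glk*, 55.0, 42.9 and 56.4 CPM in *Atepl1-2* of the first set, 16.1, 18.0 and 16.6 CPM in *Atepl1-2* of the second set and 15.8, 26.4 and 28.8 CPM in *Ateaf1-1*, against 75.2, 64.2 and 66.4 CPM in WT replicates 5, 7 and 8 and 6.02 CPM in WT replicate 4. The first 3 WT libraries exceeded every mutant library, and WT replicate 4 lay below every mutant library. No comparison with the pooled WT passed (log2 -0.28 in *glk*, -1.66 in *Atepl1-2*, -1.21 in *Ateaf1-1*). Without WT replicate 4 it passed downward in *Atepl1-2* (log2 -2.05, edgeR FDR 3.83e-06) and *Ateaf1-1* (-1.58, edgeR FDR 3.5e-05). Against WT replicate 4 alone it passed upward in *glk* (2.89, edgeR FDR 0.00125), *Atepl1-2* (1.49, edgeR FDR 0.00905) and *Ateaf1-1* (1.96, edgeR FDR 0.00276). The direction of *NDA1* is thus set by which WT libraries are used, and the first set, with no such library, gave log2 -0.41 (edgeR FDR 0.0284), or 0.26 on the log2(TPM + 1) scale.

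*OM66*, which encodes an AAA-type ATPase of the outer mitochondrial membrane and is a common marker of mitochondrial stress, was the one gene of the set that fell in *glk*. It had 1.37, 1.42 and 1.46 CPM in *glk*. It had 191, 264 and 314 CPM in *Atepl1-2* of the first set, 67.3, 48.6 and 38.7 CPM in *Atepl1-2* of the second set and 51.3, 61.4 and 89.8 CPM in *Ateaf1-1*. WT had 46.8, 51.3 and 20.9 CPM in the first set and 13.8 CPM in replicate 4. The *glk* libraries lay below every other library, *Atepl1-2* of the first set lay above every other, and *Atepl1-2* of the second set overlapped WT.

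In *glk* *OM66* was 23.2-fold lower than in WT (log2 -4.54, SE 0.473, edgeR FDR 3.99e-05). Against WT replicate 4 alone it remained lower, at -3.24 (edgeR FDR 0.000468). It rose 6.46-fold in *Atepl1-2* of the first set (log2 2.69, SE 0.327, edgeR FDR 8.14e-05). The second set did not pass against pooled WT (*Atepl1-2* 0.62, edgeR FDR 0.196; *Ateaf1-1* 0.98, edgeR FDR 0.051). Both passed against WT replicate 4 alone, at 1.91 (edgeR FDR 0.00627) and 2.28 (edgeR FDR 0.00308).

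*UPOX*, a mitochondrial protein gene named for its rise under oxidative stress, stayed low. It had 1.26, 1.10 and 1.15 CPM in *glk*, 0.339, 0.317 and 0.0821 CPM in *Atepl1-2* of the first set, 1.45, 1.01 and 2.17 CPM in *Atepl1-2* of the second set and 1.48, 0.732 and 1.00 CPM in *Ateaf1-1*, against 0.540, 1.06 and 1.14 CPM in WT of the first set and 2.19 CPM in WT replicate 4. In the second set all groups overlapped and no comparison with WT passed (log2 between -0.27 and 0.28). With a term for the label set the differences were -1.50 in *glk* (edgeR FDR 0.0594), -1.27 in *Atepl1-2* (0.0151) and -1.62 in *Ateaf1-1* (0.0185), and against WT replicate 4 alone they were -0.86, -0.50 and -1.04, none of which passed, so that the sign in *Atepl1-2* depends on the WT libraries used. In the first set the *Atepl1-2* libraries lay below their WT, with 18 counts against 48 (ratio 0.268, 95% counting interval 0.147 to 0.470), but the gene was too low to enter that fit. It entered the fit of all 16 libraries, where it passed downward in the first set (log2 -1.86, edgeR FDR 0.00686).

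*NAC013* and *NAC017*, the membrane-anchored factors of this response, differed in extent. *NAC013* had 3.08, 3.42 and 3.46 CPM in *glk*, 6.71, 8.39 and 5.01 CPM in *Atepl1-2* of the first set, 5.27, 4.39 and 3.06 CPM in *Atepl1-2* of the second set and 4.62, 5.55 and 4.31 CPM in *Ateaf1-1*, against 2.94, 1.75, 1.92 and 2.38 CPM in WT replicates 5, 7, 8 and 4. Every mutant library exceeded every WT library. It rose in *Ateaf1-1* (2.09-fold, log2 1.06, SE 0.225, edgeR FDR 0.00209) and in *Atepl1-2* of the second set (1.88-fold, log2 0.91, SE 0.226, edgeR FDR 0.0051) and of the first set (3.05-fold, log2 1.61, SE 0.256, edgeR FDR 0.000448). The call in *Atepl1-2* of the second set was lost without WT replicate 7 (log2 0.81, edgeR FDR 0.019), WT replicate 8 (0.84, 0.0175), *Atepl1-2* replicate 1 (0.73, 0.0266) or *Atepl1-2* replicate 3 (0.89, 0.0197). The *glk* difference was 0.58 (edgeR FDR 0.0849). *NAC013* overlaps the opposite-strand gene *AT1G32880* by 20 bases, and use of strand in the counting is not given in the sources used here.

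*NAC017* had 25.8, 24.3 and 22.5 CPM in *glk*, 45.3, 51.3 and 46.1 CPM in *Atepl1-2* of the first set, 34.7, 31.8 and 26.7 CPM in *Atepl1-2* of the second set and 29.3, 30.1 and 29.2 CPM in *Ateaf1-1*, against 27.6, 30.6, 26.3 and 27.5 CPM in WT replicates 5, 7, 8 and 4. *Atepl1-2* and *Ateaf1-1* of the second set overlapped WT, and *Atepl1-2* of the first set lay above it. The gene rose 1.69-fold in the first set (log2 0.76, SE 0.121, edgeR FDR 0.00046). In the second set the 95% intervals of the log2 difference were -0.50 to 0.11 in *glk*, -0.16 to 0.45 in *Atepl1-2* and -0.27 to 0.34 in *Ateaf1-1*.

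*Atepl1-2* is the one mutant present in both sets, which allows its effect to be compared. The difference of the effect, the first minus the second set, passed for 1 of 9 tested genes, *NDA1* (log2 -1.90, SE 0.358, edgeR FDR 0.00731), where 1.5% of 22244 genes passed, and it rests on the single WT library of the second set. For *AOX1A* it was 0.58 (edgeR FDR 0.155), for *OM66* 0.80 (edgeR FDR 0.366) and for *NDB2* -0.39 (edgeR FDR 0.538). The *Atepl1-2* libraries themselves differed between the sets: of 9 tested genes, 6 were higher in the first than in the second set, where 11% of all genes were (*OM66* by log2 2.35, *AOX1D* by 1.68, *NDA1* by 1.64, *NDB2* by 1.37, *AOX1A* by 1.08, *NAC017* by 0.65) and *UPOX* was lower (-2.59, edgeR FDR 0.00064), where 10.7% were and 21.7% passed in either direction.

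Within the second set alone, with WT replicate 4 as the only WT library and its variation assumed to be like that of the mutants, 2 of 9 genes passed in *glk* (*NDA1* up, *OM66* down), where 2.65% of 21624 genes passed, 0.777% upward and 1.88% downward. In *Atepl1-2* 4 passed upward (*AOX1D*, *NDB2*, *NDA1*, *OM66*), where 7.06% of all genes did and 12.4% passed in either direction. The same 4 passed upward in *Ateaf1-1*, where 5.52% did and 10.4% passed in either direction. *NAC013* did not pass in either mutant (log2 0.84, edgeR FDR 0.091 in *Atepl1-2*; 1.00, edgeR FDR 0.0587 in *Ateaf1-1*). With a term for the label set over all 16 libraries, 2 passed in *glk*, *NDA1* up and *OM66* down, where 6.75% of all genes did (1.92% up, 4.83% down). This fit joins the *Atepl1-2* libraries of both sets and takes their effect as equal. In *Atepl1-2* 6 passed upward, where 18.8% of all genes did and 35.6% passed in either direction, and in *Ateaf1-1* 5 passed upward, where 13.2% did and 24.7% passed in either direction. The 6 were *AOX1A*, *AOX1C*, *AOX1D*, *NDB2*, *OM66* and *NAC013*, and the 5 were the same but for *AOX1C*. *AOX1D* passed upward in both NuA4 mutants and *OM66* downward in *glk* under each of these treatments of WT.

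The mutants of the second set can be compared without any WT library. Between *glk* and *Atepl1-2*, 5 of 9 genes were lower in *glk* (*AOX1A*, *AOX1C*, *AOX1D*, *NDB2*, *OM66*), where 15.6% of all genes were, 11.3% were higher and 27% passed in all. Between *glk* and *Ateaf1-1*, 4 were lower in *glk* (*AOX1A*, *AOX1D*, *NDB2*, *OM66*), where 12.1% of all genes were, 9.58% were higher and 21.7% passed in all. These contrasts share the *glk* libraries. In each of them 6 genes lay lower and 1 higher in *glk* without overlap, where 32.4% and 27.6% of all genes did against *Atepl1-2* and 31% and 25.4% against *Ateaf1-1*. *OM66* was 35.7-fold lower in *glk* than in *Atepl1-2* (log2 -5.16, SE 0.494) and 45.8-fold lower than in *Ateaf1-1* (-5.52, SE 0.502). *NDB2* was 4.07-fold and 4.46-fold lower in *glk* (log2 -2.02, edgeR FDR 0.000724; -2.16, edgeR FDR 0.000553). *AOX1A* was lower by 0.89 on the log2 scale against *Atepl1-2* (edgeR FDR 0.00117) and by 0.76 against *Ateaf1-1* (edgeR FDR 0.00417), the second call being lost without any 1 of the 6 libraries (log2 -0.80 to -0.73, edgeR FDR 0.0106 to 0.0231). *NDA1* was higher in each *glk* library than in any library of *Atepl1-2* (log2 1.39, edgeR FDR 0.0704) or *Ateaf1-1* (0.93, edgeR FDR 0.232) without passing.

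Between the NuA4 mutants, 0 of 9 genes passed, where 0.13% of 20733 genes did (0.082% higher and 0.0482% lower in *Atepl1-2*), and 1 had an unadjusted p below 0.05. That gene was *AOX1C*, with log2 3.47 for *Atepl1-2* minus *Ateaf1-1* (95% interval 1.91 to 5.02, edgeR FDR 0.0277) and higher libraries throughout in *Atepl1-2*. *AOX1C* and *AOX1D* were the 2 genes with all *Atepl1-2* libraries above all *Ateaf1-1* libraries, and 0 were below, where 16.3% and 14% of all genes were. DESeq2 passed *AOX1C* in this comparison, and voom passed 0 of the 9. For the others the intervals of the log2 difference were -0.24 to 0.51 for *AOX1A*, -0.54 to 1.33 for *AOX1D*, -0.90 to 0.63 for *NDB2*, -1.68 to 0.77 for *NDA1*, -1.23 to 0.51 for *OM66* and -0.65 to 0.34 for *NAC013*, each of which includes 0.

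**Figure D4:**
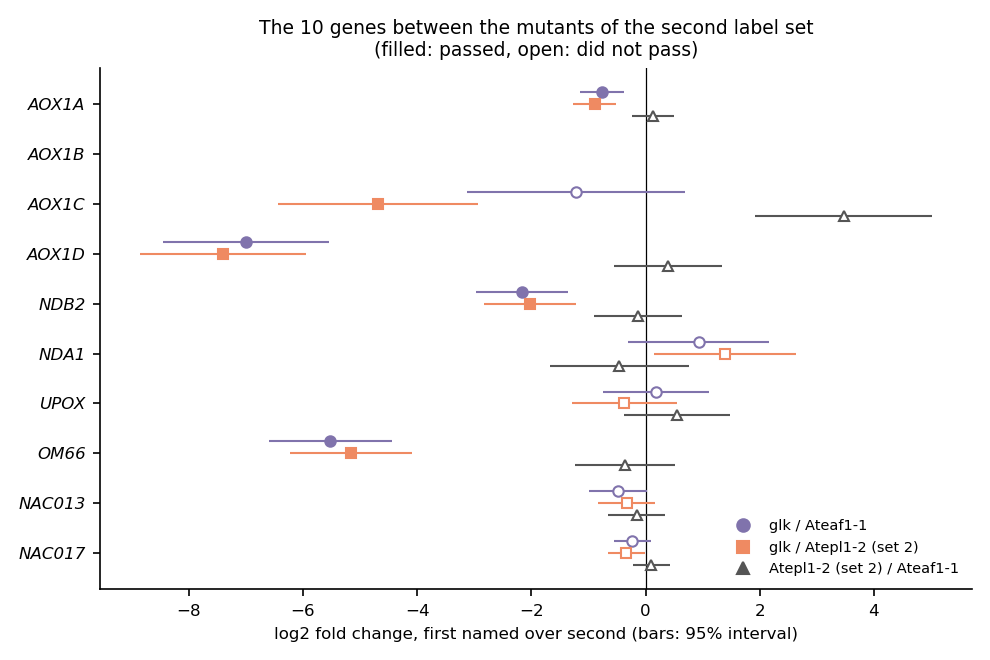
Log2 difference of each gene between mutants of the second set (x axis, with 95% confidence intervals; filled points passed the test). *AOX1D* and *OM66* lie far left in both comparisons of *glk* with a NuA4 mutant, and only *AOX1C* lies away from 0 between *Atepl1-2* and *Ateaf1-1*.

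Other genes of the same biology were read as fixed lists. Of 17 further genes known to respond to mitochondrial inhibition, 15 were tested in the second set. There 5 fell and 0 rose in *glk* (median log2 -1.52), 6 rose and 0 fell in *Atepl1-2* (1.04) and the same 6 rose in *Ateaf1-1* (1.02). In the first set 7 of 14 rose and 1 fell (1.495). Shares of all genes were 7.45% falling in *glk*, 16.8% rising in *Atepl1-2* of the second set and 13.6% rising in *Ateaf1-1*. In the first set 23.3% rose and 21.8% fell. The 6 were *CRF6* (a cytokinin response factor), *CYP81D8*, *AT5G43450*, the MATE transporter genes *AT2G04050* and *AT2G04070* and the TIR-domain gene *AT1G57630*. *AT1G57630* averaged 0.0582 CPM in *glk* and 57.1 CPM in *Atepl1-2* of the first set, against 0.684 CPM in all WT and 0.756 CPM in WT of the first set, and passed in all 4 comparisons (log2 -3.49 in *glk*, 6.21 and 5.39 in *Atepl1-2* of the first and the second set, 4.56 in *Ateaf1-1*). The 5 that fell in *glk* were *AT1G57630*, *AT5G14730* (-3.93), *SAP12* (-3.41), *SOT12* and *GSTU24*. With the second set alone 0 of the list passed in *glk*, where 2.65% of all genes passed. *AT1G57630* then stood at -2.96 and *AT5G14730* at -2.64, both of which passed with the set term (-2.79 and -3.63), while *SAP12* stood at -0.58 and did not pass with the term (-1.80). In *Atepl1-2* and *Ateaf1-1* 4 and 3 of the list rose with the second set alone, where 12.4% and 10.4% of all genes passed in either direction.

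The remaining oxidase and dehydrogenase genes moved in part. *AOX2* and *NDB4* were too low to test. Of the 5 tested genes 0 passed in *glk*, 2 rose in *Atepl1-2* (*PTOX*, the plastid terminal oxidase, log2 0.78, and *NDA2*, 1.21) and 1 in *Ateaf1-1* (*NDA2*, 1.49). Among all genes 11.6% passed in *glk* in either direction, and 16.8% rose in *Atepl1-2* and 13.6% in *Ateaf1-1*. With the second set alone *PTOX* (0.70) and *NDA2* (1.03) did not pass in *Atepl1-2*. *NDA2*, the paralog of *NDA1* on the matrix face, averaged 19.6 CPM in *Atepl1-2* of the first set, against 4.63 CPM in its WT (log2 2.08). In the same comparison *NDB3* (3.36) and *PTOX* (0.86) also rose and *NDB1* fell (-1.19), where 23.3% of all genes rose and 21.8% fell.

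Among 10 further regulators of mitochondrial signalling, 9 were tested. In *glk* 1 rose and 3 fell, in *Atepl1-2* of the second set 3 rose and 1 fell, in *Ateaf1-1* 4 rose and 1 fell, and in *Atepl1-2* of the first set 5 rose and 1 fell. All genes rose in 4.18%, 16.8%, 13.6% and 23.3% of cases in these comparisons and fell in 7.45%, 13.5%, 12.5% and 21.8%. The *NAC016* gene, which lies 118 bases from *NAC017*, rose in *Atepl1-2* (log2 3.07 and 2.41 in the first and the second set) and *Ateaf1-1* (1.20) and fell in *glk* (-2.14), the calls in *Ateaf1-1* (1.15) and *glk* (-2.19) being lost with the second set alone. *NAC053*, a membrane-bound factor of the proteasome stress response, rose in *Atepl1-2* (3.24 and 2.37) and *Ateaf1-1* (2.31). *WRKY63*, known as an activator of *AOX1A*, rested on 2 WT counts, with ratios of 41.6 (95% counting interval 11.3 to 347) in *Atepl1-2* of the second set and 61.3 (16.7 to 509) in *Ateaf1-1*.

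*WRKY40*, known as a repressor of *AOX1A*, averaged 2.49 CPM in *glk*, against 121 CPM in WT (log2 -5.59, edgeR FDR 7.72e-05). It also fell in *Atepl1-2* (-2.58) and *Ateaf1-1* (-2.47) of the second set against pooled WT, but not against WT replicate 4 alone (-1.40 and -1.29), where the *glk* fall remained (-4.41). The first set gave -0.22 for *Atepl1-2*, which did not pass. *WRKY15* fell in *glk* (-2.63), also with the set term (-2.19) but not against WT replicate 4 alone (-1.69). *MYB29*, a known negative regulator of *AOX1A*, rose in *glk* and fell in *Atepl1-2* of the first set. With the set term 0 of the 9 tested regulators rose in *glk*, so that rise of *MYB29* was no longer called, where 1.92% of all genes rose.

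Of 25 genes of the cytochrome pathway and phosphorylating respiration, 0 rose and 1 fell in *glk*, 1 rose and 2 fell in *Atepl1-2* of the second set, 0 rose and 3 fell in *Ateaf1-1* and 2 rose and 8 fell in *Atepl1-2* of the first set, with medians of -0.32, -0.11, -0.35 and -0.39, where 7.45%, 13.5%, 12.5% and 21.8% of all genes fell. Without WT replicate 4 the counts were 0 rising and 4 falling in *glk*, 1 and 7 in *Atepl1-2* and 0 and 9 in *Ateaf1-1*, where 20.2%, 36.6% and 33.1% of all genes passed in either direction. Against WT replicate 4 alone the list medians were 0.11 in *glk*, 0.39 in *Atepl1-2* and 0.14 in *Ateaf1-1*. Medians of all genes were then 0.04, 0.11 and 0.14. With the set term the list medians were -0.28, -0.16 and -0.29. Their sign thus depends on the WT libraries used. The complex III gene *QCR7-2* passed upward in *Atepl1-2* of the second set (2.39) and downward in *glk* (-2.24), and the complex IV gene *COX6B-1* passed downward in *Atepl1-2* (-1.31) and *Ateaf1-1* (-0.95) of the second set. With the second set alone *QCR7-2* (2.61 in *Atepl1-2*, -2.01 in *glk*) and *COX6B-1* in *Ateaf1-1* (-0.76) did not pass. *ATP2-2*, a beta subunit of ATP synthase, averaged 55.7 CPM in *Atepl1-2* of the first set, against 135 CPM in its WT (-1.27).

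Of 6 genes for uncoupling proteins and dicarboxylate carriers, the carriers *DIC1* and *DIC2* fell in *glk* (log2 -3.38 and -4.39). *DIC1* averaged 6.66 CPM in *glk*, against 70.0 CPM in WT, and *DIC2* 4.04 CPM in *glk*, against 85.6 CPM in WT. Against WT replicate 4 alone *DIC1* passed (-2.47) and *DIC2* did not (-3.13). *DIC2* also fell in *Ateaf1-1* (-2.49), but neither against WT replicate 4 alone (-1.23, edgeR FDR 0.278) nor with the set term (-1.23, edgeR FDR 0.0965). In *Atepl1-2* of the first set *DIC1* rose (0.86, edgeR FDR 0.00888) and the uncoupling protein gene *UCP2* fell (-0.69, edgeR FDR 0.00185), and in *Atepl1-2* of the second set 0 of the 6 passed. Of 16 genes for mitochondrial chaperones, prohibitins and proteases 15 were tested, of which 1 rose in *glk*, 2 in *Atepl1-2* of the second set, 4 in *Ateaf1-1* and 5 in *Atepl1-2* of the first set, and 0 fell. In the same 4 comparisons 4.18%, 16.8%, 13.6% and 23.3% of all genes rose and 7.45%, 13.5%, 12.5% and 21.8% fell. The prohibitin gene *PHB4* was the one common to the 4 comparisons (0.86 in *glk*, 1.56 and 0.80 in *Atepl1-2* of the second and the first set, 1.17 in *Ateaf1-1*), although with the set term it did not pass in *glk* (0.52) or *Ateaf1-1* (0.89).

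**Figure D5:**
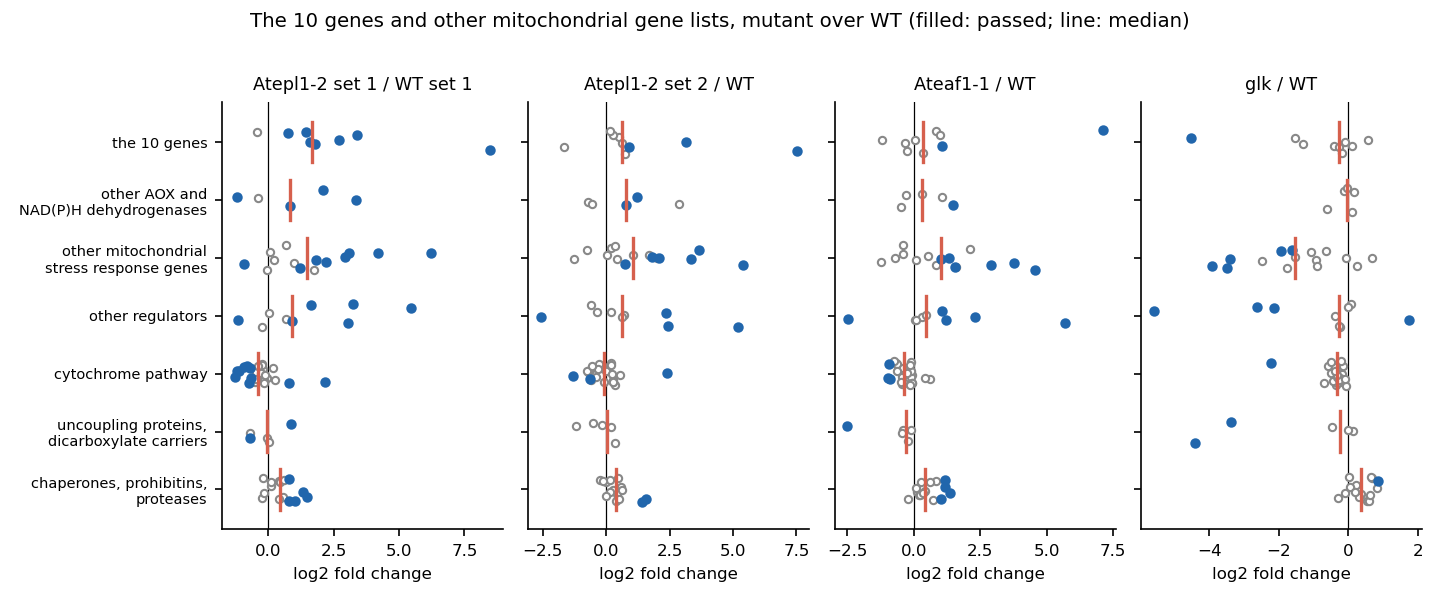
Log2 difference from WT of each tested gene (x axis) by list (down the page), with 1 point per gene, filled where it passed the test, and a line at the list's median, in 4 comparisons; *DIC3*, with 0 counts in WT, is not drawn. Other stress response genes lie mostly above 0 in *Atepl1-2* and *Ateaf1-1* and mostly below 0 in *glk*, and the list medians of the cytochrome pathway lie between -0.39 and -0.11.

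Across the 13 libraries of the WT and second-set comparisons, the genes whose log2 level was most like that of *AOX1A* were *CNGC19* (Pearson r = 0.975), *AT3G21530* (0.972), *AT4G34380* (0.967), *AT2G27660* (0.967) and *CRK13* (0.967), out of 20732 genes compared. Within the set the value was 0.929 for *NDB2*, 0.879 for *OM66*, 0.814 for *AOX1D*, 0.806 for *NAC017*, 0.623 for *AOX1C*, 0.486 for *NAC013*, -0.194 for *NDA1* and -0.214 for *UPOX*. These libraries share genotypes and library depth, and the values are descriptions.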

How the data were processed

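RNA from leaves was sequenced as paired reads after ribosomal RNA removal with a stranded total RNA kit. As described in the study's methods, the authors trimmed reads with BBDuk2, dropped those under 50 bp and quantified Araport11 transcripts with Salmon, correcting for sequence and GC bias. The submitters' processing notes name Salmon 0.13.1, and the study's reporting form names another version. BWA, which these notes also name, aligned the ChIP reads of the series. The deposited tables hold, per gene and library, Salmon's estimated counts and TPM as the authors summed them; TPM of the first set sums to 955462 to 979577 per library. All 16 RNA libraries were used, and other assays of the series were not used here. Every deposited column was matched to a sample by its name.

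Estimated counts were rounded to whole numbers. Of 32865 genes, 4843 had no counts. After filterByExpr by group and TMM scaling, edgeR 4.0.16 quasi-likelihood tests (R 4.3.3) were fitted to 13 libraries (20733 genes; *glk*, *Atepl1-2*, *Ateaf1-1* of the second set and all 4 WT) and to the 6 libraries of the first set (18840 genes), with a threshold of FDR 0.01 and 1.5-fold, following the study's thresholds. SE is the log2 difference divided by the square root of F. CPM values shown are TMM-scaled over 16 libraries. Counting intervals are exact conditional 95% intervals, and the floor is 3 counts. The tests were checked on simulated counts. Alternatives were DESeq2 1.42.0, limma 3.58.1 voom, log2(TPM + 1) and log2(TPM + 0.1), other filters and thresholds, other choices of libraries, the label set as a term, and each library left out; the difference of the *Atepl1-2* effect between sets, and alternatives for the other lists, were added after seeing the data. The 10 genes and the other lists were chosen with earlier results of these data known. Named genes are the 10, up to 3 rising and 3 falling most in each other list among those that passed a comparison with WT, and the 5 most correlated with *AOX1A*; *CRF6*, *CYP81D8*, *AT5G43450*, *SOT12*, *GSTU24* and *MYB29* were named after their values were seen, to complete a count. Sequences were read from the RefSeq TAIR10.1 genome; all 10 genes matched by locus identifier.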

Additional observations from a re-analysis of the deposited data

Results flagged for a closer look

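*AOX1D* had 0.265 CPM in WT replicate 7 of the first set and 0 CPM in the other 3 WT libraries, so all of its WT signal came from 1 library. *NDA1* had 6.02 CPM in WT replicate 4, the one WT library of the second set, and 64.2 to 75.2 CPM in the other 3, a gap that spans 0.841 of the group's range. Both libraries were noted because the gap to the nearest other WT value was wide for a group of 4, which chance alone brings about in 1 of 20 groups of normally spread values. For *AOX1D* that rate does not apply, because the other 3 WT libraries all sat at 0. It cannot be taken for *NDA1* either, because the library set apart is the one WT library of the second set. The *NDA1* effect of *Atepl1-2* differed between the first and the second set by -1.90 on the log2 scale (SE 0.358, edgeR interaction FDR 0.00731), and that difference uses WT replicate 4 as the only WT library of the second set.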

How the results depend on the processing

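Counts of the 10 genes that passed depended on the WT libraries and the scale. In *glk* against WT (1 gene) 2 passed at FDR 0.05, with DESeq2, with the label set as a term and with the second set alone, and 1 to 2 with a library left out. In *Atepl1-2* against WT (3) 7 passed on log2(TPM + 1), 7 on log2(TPM + 0.1) and 6 with the set term, and 1 to 4 with a library left out. In *Ateaf1-1* against WT (2) 6 and 6 passed on the TPM scales, 1 with these 2 groups alone, 5 with the set term and 4 with the second set alone, and 2 to 3 with a library left out. In *Atepl1-2* against *Ateaf1-1* (0) 1 passed at FDR 0.05, with DESeq2, on either TPM scale and with the set term. Leaving out a library gave 7 to 8 in the first set (7; *UPOX* also fell without WT replicate 5), 3 to 4 in *glk* against *Ateaf1-1* (4), 5 to 5 in *glk* against *Atepl1-2* (5) and 0 to 0 between the NuA4 mutants. Of 74 such counts under alternatives, 57 stayed within 1.5 times.

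Over the comparisons with WT and the differences between mutants with an unadjusted p below 0.05, directions reversed for *AOX1A* in *glk* (0.082 and 0.095 on the TPM scales, 0.22 with the set term), *NDB2* in *glk* (0.17 with the second set alone), *NAC017* in *glk* (0.25 and 0.31 on the TPM scales, 0.089 with the term), *AOX1C* in *Ateaf1-1* (0.035 and 0.25 TPM, 0.050 with voom, -0.85 to 0.43 with a library left out) and *AOX1D* in *glk* (-1.26 to 4.45 with a library left out). *UPOX* reversed in *glk* (0.27 and 0.61 TPM, -0.32 to 0.36 with a library left out), in *Atepl1-2* (-1.27 with the term, -0.50 with the second set alone, -0.049 to 0.72 with a library left out) and in *Ateaf1-1* (0.44 and 0.87 TPM, -0.57 to 0.18 with a library left out). *NDA1* reversed in *glk* at 0.55 and 0.73 (TPM), 0.19 (voom), 1.70 (term) and 2.89 (second set alone), in *Atepl1-2* at 0.10 (term) and 1.49 (second set alone), in *Ateaf1-1* at 0.10 and 0.22 (TPM), 0.83 (term) and 1.96 (second set alone), and in the first set at 0.26 and 0.29 (TPM). The TPM scales moved the median of all genes up by 0.26 to 0.96; otherwise the cause was not tested. Genes called over the whole table also moved: 574 in *glk*, 2686 in *Atepl1-2* and 2252 in *Ateaf1-1* with the second set alone, against 2411, 6272 and 5411; 9474 and 9778 in *Atepl1-2* and *Ateaf1-1* on log2(TPM + 0.1); 3469 in *Ateaf1-1* with these 2 groups alone; and in *glk* 4509 at FDR 0.05, 3707 with DESeq2, 1358 on log2(TPM + 1) and 1424 with the set term. Between the NuA4 mutants 27 genes became 835 at FDR 0.05, 919 with DESeq2, 80 with voom, 47 without a filter, 179 and 148 on the TPM scales, 307 with the set term and 0 with these 2 groups alone.

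No paired analysis was possible because WT shares fewer than 2 replicate numbers with any mutant it was compared with. Among mutants a replicate block was fitted; same-numbered libraries share only a number (correlations -0.113 to 0.2). With the block 6 of the genes passed between *glk* and *Atepl1-2*, 5 between *glk* and *Ateaf1-1* (*NDA1* added to both) and 0 between the NuA4 mutants. *AOX1B*, *AOX1C* and *UPOX* are limited by depth.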
